A study of Mus musculus with 2 samples.

Results

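In mouse mesenchymal stem cell lines with and without Dicer, 3527 small RNA sequences of 18 to 35 nt ended in the letters CCA and matched no annotated transcript. They are candidates for the 3′ ends of mature transfer RNAs (tRNAs), which all end in CCA. A sequence was a member when its last 3 bases were CCA, when it matched no GENCODE mouse transcript in sense without a mismatch, and when it had 10 or more reads summed over both libraries. There were 1236583 distinct sequences in all, and 38034 of them met the length, end and match criteria at any read number. Members were thus selected on their CCA end, their missing match and their summed read count, and these properties are described here and not tested. At the threshold, 270 sequences had 10 reads, with 577 f/f and 2123 null reads between them, and 300 sequences just outside had 9 reads, with 626 f/f and 2074 null reads. Of the members, 2852 had reads in both libraries, 511 had none in f/f and 164 had none in null. A member that reached 10 reads through 1 library alone had to differ between the libraries.

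The study compared the small RNAs of immortalized clonal mouse MSC lines, fibroblast-like cells found in the bone marrow of adults, on the C57BL/6 strain. One line carried Dicer f/f, floxed alleles that the labels treat as wild type, and the other was Dicer -/-, called null here. Both grew until nearly confluent in Alpha-MEM that contained 10% fetal bovine serum and pen/strep, with no other treatment given in the labels. Each genotype had 1 library of a clonal line, so a difference between clones or between libraries cannot be told apart from a difference between genotypes, and no p-value is given. The ranges in brackets are 95% intervals. They cover counting error only, and reads that are PCR copies are not independent molecules.

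The CCA end is not encoded in mammalian tRNA genes. An enzyme adds it after the precursor has been trimmed, and the finished end then carries the amino acid. Upstream of the acceptor strand lies the T arm, a short stem closed by the T loop, whose conserved bases include pseudouridine and, in many tRNAs, an adenosine methylated at position 1 of its ring. Cuts within the T loop release 3′ fragments that keep the CCA, and in mammalian cells these fragments fall into a few preferred lengths. Dicer, an RNase III, makes microRNAs (miRNAs) from their precursor hairpins. For tRNA fragments both Dicer-dependent and Dicer-independent formation have been described.

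Members that share their last 18 bases are called a family here and are named by the 9 bases before CCA. The following sequences are the members among the 3 most abundant of either library and the most abundant 18-nt member, since they carry the lengths described below. Capitals mark bases 22 to 19 counted from the 3′ end, which lie in the T loop, and the CCA.
CTTCTGACA family, 22 nt: TCGAatcccacttctgacaCCA
GCATCTCCA family, 22 nt: TCAAtccccggcatctccaCCA
CTCCTGACA family, 22 nt: TCGAatcccactcctgacaCCA
CCGACTACG family, 22 nt: TCGAatcctgccgactacgCCA
GTGGAACCA family, 22 nt: TCGAgccccagtggaaccaCCA
GCATCTCCA family, 18 nt: tccccggcatctccaCCA
The 22-nt members shown began with TCGA or TCAA and the 18-nt member began just after these 4 bases. The 22-nt CTTCTGACA member was the most abundant member of both libraries, with 13210 f/f reads and 31855 null reads. The 18-nt GCATCTCCA member had 5783 f/f and 4565 null reads.

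A further length was 30 nt, long enough to hold a whole T loop. The most abundant 30-nt members of the 4 tRNA families with most 30-nt reads are shown, leaving out the family near the Y RNA Rny1 that ranks among them, with the loop motif (bases 23 to 19) and CCA in capitals.
CGTTGGGCG family, 30 nt: tcgtgggTTCGAgccccacgttgggcgCCA
GCATCTCCA family, 30 nt: ccccgggTTCGAtccccggcatctccaCCA
CCAGGGACG family, 30 nt: ttggtggTTCGAgcccacccagggacgCCA
GTTCGGGCG family, 30 nt: tccagggTTCAAgtccctgttcgggcgCCA
In all 4, bases 28 to 24 can pair with bases 16 to 12, as in a T stem.

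The f/f library held 9943989 reads and the null library 6291599, and levels are given in CPM, the read count divided by all reads of its library. A sequence with 0 reads could have had up to 0.302 CPM in the f/f library and 0.477 CPM in the null one. Of f/f reads, 64.6% were 18 to 35 nt long and matched a transcript, and of null reads 17.5% did. Reads unique to the mesenchymal markers Col1a1, Col1a2, Col3a1, Fn1 and Vim were present in both libraries, from 2 to 544 each. The blood, epithelial and skeletal muscle markers Ptprc, Epcam and Myh3 had 0, and endothelial Pecam1 had 4 and 1. The scale set between the libraries matters for each null to f/f ratio of levels. Scaling to transcript-matched reads in place of all reads moved the log2 ratios by 1.75, and scaling to reads of 18 nt or longer moved them by 0.13. Scaling to snoRNA and snRNA reads moved them by -2.10, which made each ratio 4.30 times smaller, so that ratios between 1 and 4.30 turned to lower in null.

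Members made up 1.84% of f/f reads (1.83 to 1.85%) and 8.04% of null reads (8.02 to 8.06%). Their summed level was 18371 CPM in the f/f library, against 80376 CPM in null, a null to f/f ratio of 4.38 (4.35 to 4.40), which per snoRNA and snRNA read was 1.018. Other unmatched reads with 10 or more copies were 1.47 times as high in null, and transcript-matched reads were 4.69 times lower. CCA was the most frequent 3′ trinucleotide of unmatched null reads, at 17.0%, followed by AAA at 12.8%. In f/f it ranked second of 64, at 7.76%, after TTA at 9.49%. Among transcript-matched reads CCA ended 1.19% in f/f and 1.21% in null.

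By sequence, 2937 of the 3527 members (83.3%) were more than 2-fold higher in null, where 61.2% of all 46957 sequences of these lengths with 10 or more reads were. More than 2-fold lower were 232 members (6.58%), against 31.2% of all sequences. Per snoRNA and snRNA read, 38.1% of members were more than 2-fold higher and 17.8% more than 2-fold lower. With a minimum of 2 reads in place of 10, 51.1% were higher and 2.01% lower in CPM. There a count of 0 was taken at 3 reads, so a sequence with 2 or 3 reads, all in null, could not pass 2-fold. The share over all sequences was computed in CPM at 10 or more reads only, so it does not compare with these values. The median log2 ratio was 2.66 over members and 2.25 over all sequences. Both medians include sequences whose f/f or null count was 0, taken at 3 reads. The members' share was above the background at 22 nt, where 1710 of 1854 (92.2%) were higher, and at 30 nt, where 286 of 296 (96.6%) were. It was near the background at 18 nt, with 175 of 300 (58.3%), and at 19 nt, with 172 of 299 (57.5%). The background covers all lengths together and was not split by length. In summed CPM, matched and other unmatched reads had null to f/f ratios of 0.0239 and 0.481 at 22 nt. At 30 nt these ratios were 6.04 and 8.14, so other 30-nt reads were higher in null too. Many members were near copies of others, and 2120 (60.1%) differed by 1 base from a member at least 10 times more abundant. These held 11.8% of f/f and 18.9% of null member reads, and without them 71.4% of members were more than 2-fold higher and 13.2% more than 2-fold lower. The share over all sequences without such near copies was not computed.

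Features of the tRNA T arm that the choice of members did not use were common in them. The motif searched was TTCNA on the read strand, with N any base, at bases 23 to 19 from the 3′ end, in reads of 23 nt or longer. It was present in 23.3% of f/f member reads (22.5 to 24.01%) and in 64.6% of null member reads (64.1 to 65.0%). Of these reads, 3073 of 12494 in f/f and 31865 of 44499 in null belonged to the nuclear tRNA classes described below. Within those classes the order was reversed, with the motif in 92.7% of f/f and 89.6% of null reads. Most families entered those classes by T-loop bases, so a high share there was partly set by the choice. In other unmatched reads with 10 or more copies it was present in 0.839% and 0.0863%, and in matched reads in 0.0279% and 0.0146%. All 5 base pairs of a T stem, counting G with T, could form between bases 28 to 24 and 16 to 12 in 56.6% of f/f and 72.2% of null member reads of 28 nt or longer. Within the nuclear tRNA classes they could form in 93.0% of f/f and 88.8% of null reads. All 5 pairs could form in 1.41% and 1.20% of other unmatched reads and in 9.74% and 10.8% of matched reads. Loop motif and stem occurred together in 49.1% of f/f and 63.6% of null member reads, against 0.00433% and 0.0282% of other unmatched reads. Base 16, which lies in the T stem and is C in nearly all tRNAs, was C in 88.6% of f/f and 96.7% of null member reads, against 20.8% and 19.9% of other unmatched reads. Counted by distinct sequence, TTCNA was in 334 of 759 members of 23 nt or longer, 78 of 20744 other unmatched sequences and 7 of 4582 matched ones.

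Members were then sorted into classes by what they matched. The largest class held 2544 members in families with a read that showed the T-loop bases, with 129092 f/f and 390606 null reads. A class of 223 members in 12 families matched the 3′ end of a nuclear tRNA gene of RefSeq, with 27492 f/f and 94412 null reads. These 2 nuclear tRNA classes together were 4.90 times as high in null (4.87 to 4.92). Mitochondrial tRNAs accounted for 183 members with 6708 f/f and 6320 null reads, a ratio of 1.49 (1.44 to 1.54), which fell below 1 per snoRNA and snRNA read. All tRNA classes held 89.4% of f/f and 97.2% of null member reads. The other reads were assigned to no tRNA. They included 109 members that were 1 substitution or 1 added last base away from a miRNA hairpin, with 11825 f/f and 20 null reads. A further 17 members matched U2 snRNA with an added A, with 2231 f/f and 468 null reads, 3 lay near the Y RNA Rny1, and 448 members stayed unassigned, with 5194 and 10771 reads.

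The RefSeq table lists 408 nuclear tRNA genes, and the last 15 bases of 23 of them lay within a transcript or promoter sequence that could be read. Of these, 14 genes matched 12 member families, on 7 chromosomes, in the GRCm38 build. The symbols give the amino acid in 1 letter and the anticodon. The CCGACTACG family carries the 3′ end of 3 serine tRNA genes with the same last bases, n-TSaga9 at chr4:10874064-10874145 on the plus strand, n-TStga1 at chr13:23518146-23518227 on the plus strand and n-TStga2 at chr13:21924935-21925016 on the minus strand. It had 9204 f/f and 27115 null reads, a ratio of 4.66. Another serine gene, n-TSgct5 at chr13:22050686-22050767 on the minus strand, ended the TCCTCGTCG family, with 3985 and 17771 reads and a ratio of 7.05. The valine gene n-TVcac9 at chr13:23446142-23446214 on the minus strand ended the GCGGAAACA family, with 3936 and 13105 reads and a ratio of 5.26. The asparagine gene n-TNgtt7 lies at chr10:80249159-80249232 on the plus strand, within the promoter window of Ndufs7, and ends the CCAGGGACG family shown above. The glycine gene n-TGccc7 lies at chr17:25875088-25875158 on the plus strand, within an exon of Mettl26, and its family had 711 and 2831 reads. The isoleucine gene n-TItat14 at chr13:21896938-21897031 on the minus strand overlaps Mir1983, and its family had 502 and 4030 reads. Other families were not assigned to a tRNA gene, because a complete set of tRNA sequences was not used here.

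The libraries differed by read length. At 18 nt, 300 members held 28980 f/f and 30183 null reads, a ratio of 1.65 (1.62 to 1.67). At 19 nt, 299 members held 19104 and 18660 reads, a ratio of 1.54 (1.51 to 1.58). These short fragments were higher in null in CPM by less than 2-fold, and per snoRNA and snRNA read the 18-nt ratio was 0.383. At 22 nt, 1854 members held 115126 f/f and 398236 null reads, a ratio of 5.47 (5.43 to 5.50) that kept its direction per snoRNA and snRNA read, at 1.27. At 30 nt, 296 members held 2429 and 32333 reads, a ratio of 21.04 (20.2 to 21.9). The 23-nt members had 5305 and 3180 reads, a ratio of 0.947 (0.906 to 0.990). Of these f/f reads, 3080 came from 1 sequence near Mir145a, which had 0 null reads. No member was longer than 33 nt.

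**Figure D1:**
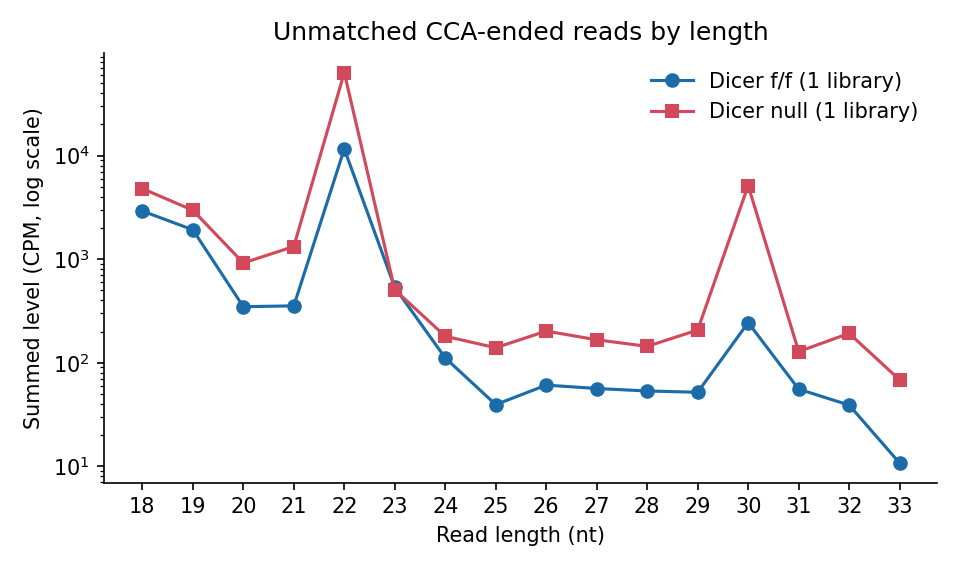
Summed level of the members at each read length in CPM on a log axis, with 1 point per library for Dicer f/f (circles) and Dicer null (squares). Both libraries peak at 22 nt, and the lines meet at 23 nt. Both have a local peak at 30 nt, with 5139 CPM in null and 244 CPM in f/f. The 18-nt level is 4797 CPM in null and 2914 CPM in f/f, so in f/f it is far above the 30-nt level. Per snoRNA and snRNA read, the 18-nt order is turned around.

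The ratio of 2 lengths within a library does not depend on the scale between libraries. There were 3.97 reads of 22 nt per 18-nt read in f/f and 13.2 in null, so that this ratio was 3.32 times as high in null (3.26 to 3.38). The ratio of 30-nt to 22-nt reads was 0.0211 in f/f and 0.0812 in null, 3.85 times as high in null (3.69 to 4.01). Reads outside the set went other ways at 22 nt. In CPM, transcript-matched 22-nt reads, which include most miRNAs, were 41.9 times lower in null, and other unmatched 22-nt reads had a ratio of 0.481. At 30 nt, matched reads had a ratio of 6.04 and other unmatched reads 8.14, so the other reads of this length were also higher in null.

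Families were counted next, each as the sum of its members. There were 1418 families, of which 922 had a single member. More than 2-fold higher in null were 1222 (86.2%), where 57.3% of all groups of sequences with the same last 18 bases were. More than 2-fold lower were 112 (7.90%), against 37.3%. The 75 families with 1000 or more reads held 85.6% of f/f and 85.4% of null member reads, and their median ratio was 5.07. Of these 75, 64 belonged to the nuclear tRNA classes, and 60 of the 64 were more than 2-fold higher in null, with the other 4 within 2-fold. Per snoRNA and snRNA read, 11 of the 64 were more than 2-fold higher, 4 were more than 2-fold lower and 49 were in between. All 64 had C at base 16, and the base before CCA was A in 34, G in 22, T in 8 and C in 0.

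**Figure D2:**
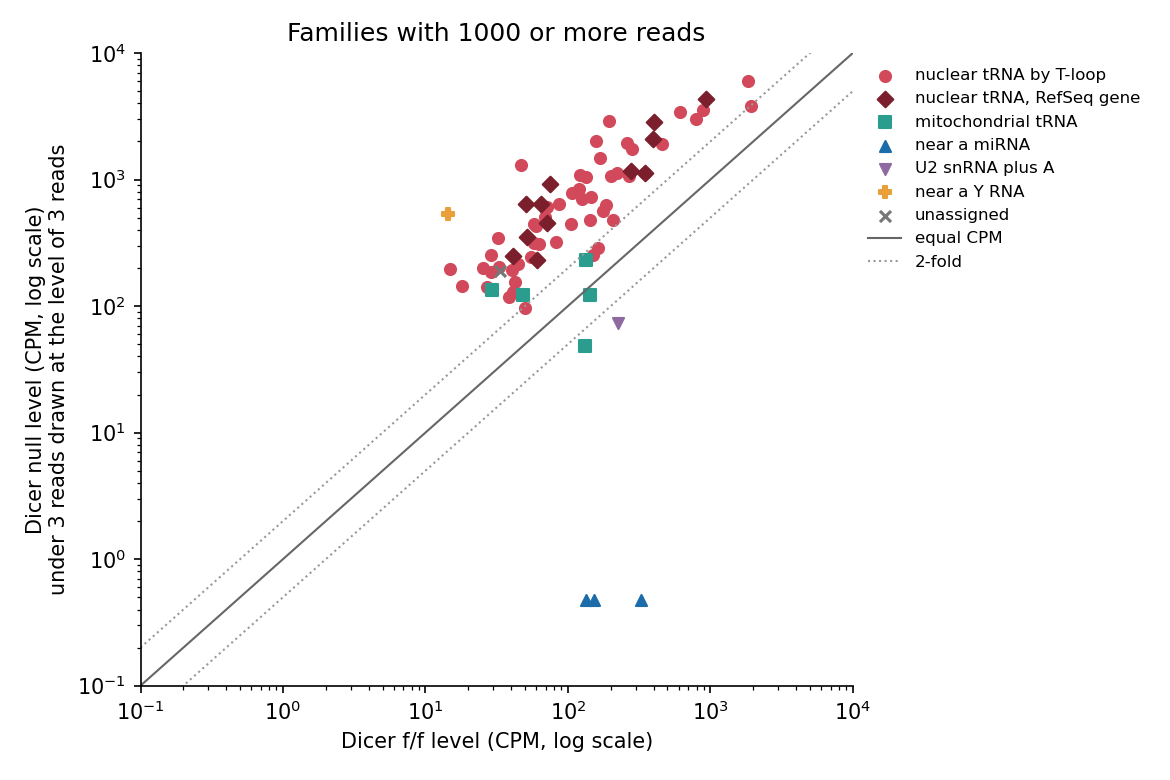
Level of each of the 75 families with 1000 or more reads in Dicer f/f (horizontal axis) and Dicer null (vertical axis), in CPM on log axes, with 1 library per genotype, symbols by class, a solid line at equal level and dotted lines at 2-fold. The nuclear tRNA families lie above the line of equal level in CPM, and 22 of the 64 fall below it when scaled per snoRNA and snRNA read. The 3 miRNA-like families lie at the bottom, with 1 null read or none.

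The 10 largest families held 45.8% of f/f and 42.1% of null member reads. CTTCTGACA was the largest in null, with 18226 f/f reads and 37819 null reads (ratio 3.28). GCATCTCCA was the largest in f/f and had 19037 and 24035 reads (ratio 1.995). These 2 families, and CTCCTGACA with 8832 and 22290 reads (ratio 3.99), fell below 1 per snoRNA and snRNA read. GCCAACGCA had 7826 and 18949 reads (ratio 3.83), and GCCAATGCA had 4563 and 12053 (ratio 4.17), and both also fell below 1 on that scale. GTGGAACCA had 6076 and 21556 reads (ratio 5.61). CCTGGGGTG had 1944 and 18403 reads, and its ratio of 15.0 (14.3 to 15.7) was the third highest among the 75 families. Just 2 families had higher ratios. GAGTTATCT, whose most abundant 30-nt sequence lies 1 substitution from Rny1, had 144 and 3367 reads (ratio 37.0). CGTTGGGCG had 468 and 8172 reads (ratio 27.6), of which 306 and 6221 were 30 nt long. The 10 largest also include the serine families CCGACTACG and TCCTCGTCG and the valine family GCGGAAACA given above.

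The 3 lowest ratios among the 75 families belonged to miRNA-like sequences. CAGGGATTT, next to Mir23a, had 1519 f/f reads and 1 null read. The 2 other families lay next to Mir145a, with 1340 f/f reads and 1 null read, and with 3246 f/f reads and none. The last was at least 685-fold lower in null, taking 0 as 3 reads of the library. Both host miRNAs depend on Dicer for their maturation. The Mir23a hairpin, at chr8:84208518-84208592 on the plus strand in RefSeq's GRCm38.p6 table, gives the mature miR-23a-3p, shown with the 2 most abundant members near it. Capitals in the members mark the base that differs from the hairpin, and the substitutions are named with the hairpin base first, counted from the 5′ end of the read.
miR-23a-3p, mature: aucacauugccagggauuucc
Mir23a member, A9C: acattgccCgggatttcca
Mir23a member, A1C: Ccattgccagggatttcca
The A9C member had 420 f/f reads and the A1C member 393, and both had 0 null reads. The hairpin itself reads CCA at the 3′ end of both, and only the 1 differing base kept them from matching it. The near-miRNA class as a whole had 11825 f/f and 20 null reads and was 374-fold lower in null (242 to 613).

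Within the families with enough reads of both lengths, the same shift towards 22 nt was seen. In 50 nuclear tRNA families with 1000 or more reads and at least 10 reads of each length in each library, the ratio of 22-nt to 18-nt reads was higher in null in 50 of 50. Nuclear tRNA families of this size with fewer 18-nt reads were left out. Of these, GACGGGGAG had a lower ratio in null, 428 in f/f and 290 in null, from 5 and 37 reads of 18 nt. GTGTGGGAA did too, at 157 and 133, from 8 and 46 such reads. GTGGAACCA, GTATGGGAA and GAGGGGGCA had higher ratios in null, and the rest had no 18-nt member. Over the 50 families the median ratio was 4.54 in f/f and 14.1 in null, and the median of the family folds was 3.16. The lowest fold was 1.06, in the largest CTCGAAGGA family, with 168 and 227 reads of 18 nt and 1307 and 1878 of 22 nt. Smaller families of the same name had folds of 1.53 and 1.25. The highest was 11.6, in TCTGGGGTG, with 38 and 30 reads of 18 nt and 1278 and 11754 of 22 nt. The valine family GCGGAAACA was close to the lower end, at 1.19. The median CPM ratio over these families was 1.92 at 18 nt and 6.57 at 22 nt.

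**Figure D3:**
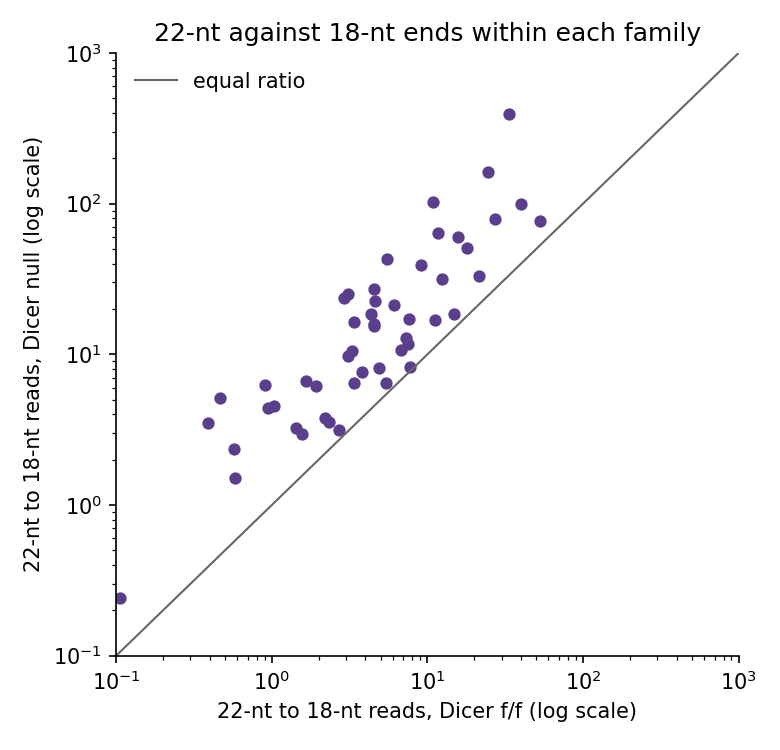
Ratio of 22-nt to 18-nt reads in each of 50 nuclear tRNA families, in Dicer f/f on the horizontal axis and Dicer null on the vertical axis, both log scales, with a line at equal ratio. Families with fewer than 10 reads of either length in a library are not drawn, and GACGGGGAG and GTGTGGGAA among them had lower ratios in null. The 50 points lie above the line, with a median of 4.54 in f/f and 14.1 in null, and the ratio does not depend on the scale between the libraries.

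The CTTCTGACA family shows the cut positions at the level of sequence. Its 22-nt, 19-nt and 18-nt members and 3 members with another base at base 19 are shown, with bases 22 to 19 and CCA in capitals where the read holds them.
22 nt: TCGAatcccacttctgacaCCA
19 nt: AatcccacttctgacaCCA
18 nt: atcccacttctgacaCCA
22 nt, T at base 19: TCGTatcccacttctgacaCCA
22 nt, C at base 19: TCGCatcccacttctgacaCCA
22 nt, G at base 19: TCGGatcccacttctgacaCCA
The 22-nt form had 13210 f/f and 31855 null reads and was 3.81 times as high in null. The 19-nt form had 610 and 305 reads (ratio 0.790, 0.687 to 0.908), and the 18-nt form had 3046 and 1569 (ratio 0.814, 0.766 to 0.866), so the shorter forms were lower in null in CPM. The forms with T, C and G at base 19 had 246 and 1012, 84 and 607, and 144 and 545 reads.

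Base 19 from the 3′ end is tRNA position 58, where many tRNAs carry 1-methyladenosine, a modification that reverse transcriptase is known to misread. A base other than A stood there in 10.6% of f/f member reads of 19 nt or longer (10.4 to 10.7%) and in 11.9% of null ones (11.9 to 12.04%). In 22-nt reads of the nuclear tRNA classes it was 4.91% in f/f (4.78 to 5.04%) and 11.01% in null (10.9 to 11.1%), which the scale between the libraries does not touch. Families entered the larger of these classes by a read with A at base 19, which bears on the level of both shares. Over all 22-nt members, of any class, it was 7.11% in f/f and 11.3% in null. Over all 30-nt members, of any class, it went the other way, with 10.9% in f/f (9.66 to 12.2%) and 5.95% in null (5.69 to 6.21%). The nuclear tRNA classes held 1956 of the 2429 f/f reads and 28158 of the 32333 null reads of 30 nt. Their share alone was not set apart at this length. A profile over the 22 bases was made in the 50 largest nuclear tRNA families with a 22-nt T-loop parent, from the parent and its 1-base neighbours. Base 19 had the highest median share of substitutions, at 3.14% in f/f and 5.74% in null. The next highest was base 20, at 2.01% and 1.89%. Neighbours with at least 1 read per 10 parent reads were left out at all bases but base 19; with them left out there too, its medians were 2.63% and 5.26%, and it was higher in null in 48 of 50 families.

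**Figure D4:**
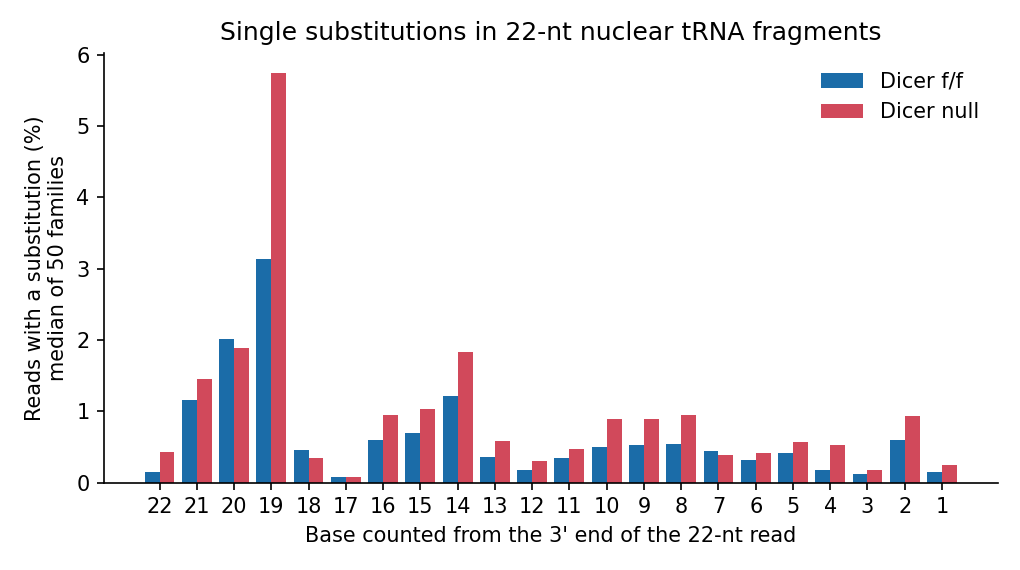
Median over 50 nuclear tRNA families of the percentage of 22-nt reads with a single substitution at each base, counted from the 3′ end on the horizontal axis, for Dicer f/f and Dicer null (1 library each). The bars start at 0, the tallest stand at base 19, at 3.14% and 5.74%, and base 20 follows at 2.01% and 1.89%.

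The base 19 share was set per family by dividing reads with another base there by those reads and the parent together. It ran from 0.416% to 36.1% in f/f, with a median of 3.69%, and from 0.417% to 48.1% in null, with a median of 6.92%. It was higher in null in 48 of 50 families, and the intervals were apart and higher in null in 37 and lower in 0. The highest shares, 36.1% in f/f and 48.1% in null, were in the GGCGGCGCA family, whose end is that of the glycine gene n-TGccc7. GCCCATGCA had 25.2% and 39.6%, and GCCAATGCA had 20.2% and 33.0%. CCTGGGGTG, the family with the third highest level ratio, had 22.3% and 35.7%. In the large GTGGAACCA family the share was 0.694% and 2.64%.

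All 22 mitochondrial tRNA genes had at least 1 member. These tRNAs are encoded on the mitochondrial chromosome, and their CCA is added after processing as well. In CPM, null exceeded f/f by more than 2-fold for 12 genes and f/f exceeded null by more than 2-fold for 2, with 8 in between. Over all groups of sequences with the same last 18 bases, 57.3% were more than 2-fold higher in null and 37.3% lower. The 12 genes include mt-Ts1, with just 4 f/f and 6 null reads (ratio 2.37, 0.562 to 11.4). Of the 21 genes with f/f reads, 6 had a ratio below 1 in CPM and 17 had one per snoRNA and snRNA read. The glutamate tRNA mt-Te had 1320 f/f reads and 1431 null reads. Its most abundant member is shown with those of 2 others that had over 1000 f/f reads, with CCA in capitals.
mt-Te, M:14071-14139, minus strand, 22 nt: tgaatgctgtgtagaaataCCA
mt-Tw, M:4950-5016, plus strand, 22 nt: cacacaagtttaacttctgCCA
mt-Tv, M:1025-1093, plus strand, 28 nt: atttcatgaccaatgaacactctgaCCA
The tryptophan tRNA mt-Tw had 1319 and 304 reads and was 2.75 times lower in null (2.42 to 3.12). The valine tRNA mt-Tv had 1426 and 767 reads (ratio 0.850), and the aspartate tRNA mt-Td had 185 and 24 and was 4.88 times lower (3.18 to 7.81). The highest ratios were in mt-Ty for tyrosine, with 6 and 49 reads (ratio 12.9, 5.52 to 36.9), and mt-Tn for asparagine, with 21 and 108 (ratio 8.13, 5.06 to 13.7). mt-Tp for proline had 122 and 386 reads (ratio 5.001), and mt-Tg for glycine had 291 and 842 (ratio 4.57). The single mt-Tl1 member had 0 f/f and 17 null reads, at least 8.96-fold higher in null with 0 taken as 3 reads, and still higher per snoRNA and snRNA read.

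**Figure D5:**
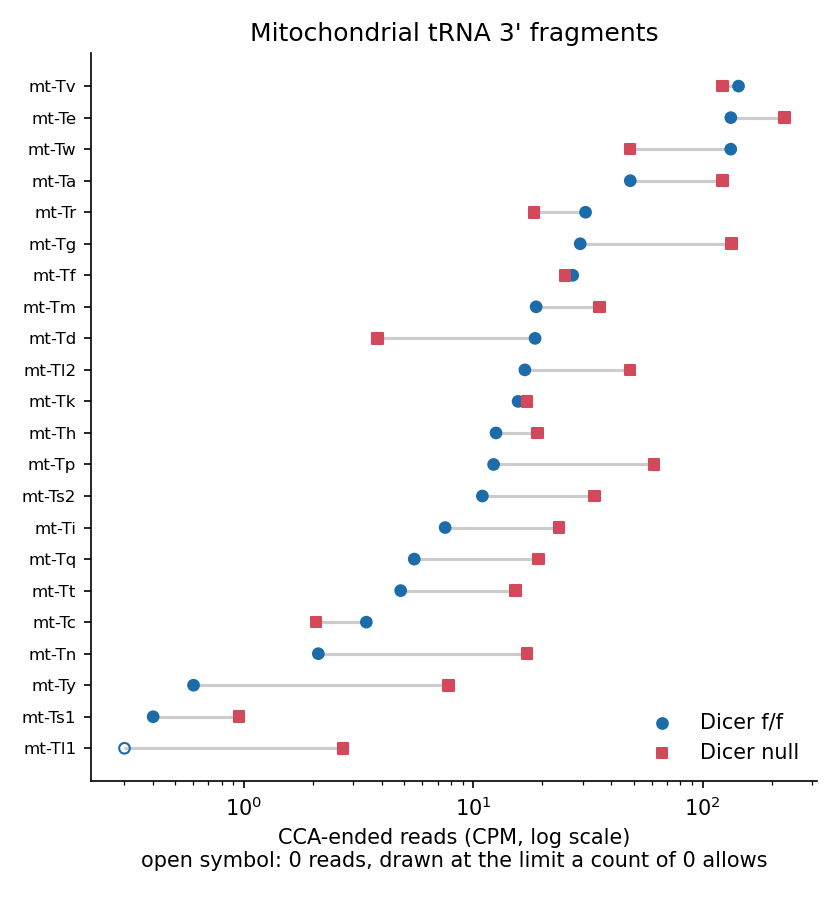
Level of CCA-ended members of each mitochondrial tRNA gene in CPM on a log axis, for Dicer f/f (circles) and Dicer null (squares), 1 library each, with the open symbol for a gene with 0 reads drawn at the limit a count of 0 allows. Some genes, such as mt-Tn and mt-Tp, lie higher in null and others, such as mt-Tw and mt-Td, higher in f/f. Of the 21 genes with f/f reads, 6 have a ratio below 1 in CPM and 17 per snoRNA and snRNA read.

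The remaining mitochondrial genes had from 0.402 to 48.4 CPM in f/f and from 0.954 to 122 CPM in null, as the plot by gene shows. Mitochondrial fragments had a broad range of lengths. The 22-nt class held 16.9% of their f/f and 13.2% of their null reads, whereas in the nuclear tRNA classes it held 69.4% and 81.7%. At 18 nt it was 9.14% and 5.36% of mitochondrial reads and 17.4% and 5.99% of nuclear ones. At 21 nt it was 15.3% and 13.1% of mitochondrial reads. At 30 nt it was 2.47% and 2.91% of mitochondrial reads and 1.25% and 5.81% of nuclear ones.

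The 30-nt members came from 157 families. Without the Rny1-like member their null to f/f ratio was 20.2, and without the largest 30-nt family it was 19.4, so it was not carried by either. CGTTGGGCG had 306 f/f and 6221 null reads at this length (ratio 32.1), and CCAGGGACG, the asparagine family, had 115 and 3586 (ratio 49.3). GTTCGGGCG had 106 and 2958 reads (ratio 44.1), while GCATCTCCA had 548 and 3747 (ratio 10.8). A ratio above 4.30 kept its direction on each scale tried.

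In the 10 largest families, reads of up to 35 nt with the family's 15 bases before CCA ended exactly in CCA in 96.7% of f/f and 95.2% of null cases. Ends without any of the 3 bases made up 0.326% and 0.448%, ends with only C 0.309% and 0.395%, and ends with CC 0.203% and 0.351%. Bases after CCA were seen in 0.721% and 0.859%. Other letters made up 1.76% and 2.77%. The families were the largest by reads that had to end in CCA, so their choice favours a high share of complete ends, and the values are a description.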

How the data were processed

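Small RNA of 15 to 50 nt from a 15% denaturing gel was sequenced, per the labels' protocols, from 2 mouse MSC lines, 1 library per genotype. The authors deposited raw read counts: distinct read sequences of 5 to 36 nt, with no coordinates. The submitters' processing notes name build mm9; the trimming and alignment tools were not given in the sources used. A read of 18 nt or more counted as matched when a GENCODE M21 transcript (GRCm38) held it in sense without mismatch. tRNA genes and miRNAs are RefSeq's (GRCm38.p6). CPM was computed over all reads of a library. Ratios carry exact conditional 95% intervals, shares exact Clopper-Pearson intervals, and a count of 0 was taken at 3 reads. The members and lists were chosen with earlier results of these data known; base 16, the ends after the family bases and the profile were chosen after values were seen. Named were the 10 largest families, the 3 highest and 3 lowest ratios among families of 1000 or more reads, the top members of each library and of 18 and 22 nt, and the mitochondrial tRNA genes with a member. Families outside this rule were named after their values were seen. On simulated data for null against f/f, searched in a sample of the transcripts, 200 of 200 transcript reads matched. Of 200 shuffled reads 0 matched, but they had been kept only when absent from that sample, so matching by accident was not measured. Intervals held the true value in 97% at fold 1 and 98% at fold 4, of 200 each. These counts were drawn as Poisson counts, the model of the intervals, so spread between clones or libraries and PCR copies were not tested. Python 3.11.15, numpy 2.4.6, scipy 1.17.1, pandas 2.3.3 and matplotlib 3.10.9 were used.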

Additional observations from a re-analysis of the deposited data

How the results depend on the processing

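No paired analysis was possible because each genotype had 1 library and the labels share no replicate number; for the same reason no library could be left out. Levels depended most on the scale between libraries. Per read of 18 nt or longer, the null to f/f ratio was 4.802 over all members, 1.81 at 18 nt and 6.00 at 22 nt. Per transcript-matched read it was 14.8, 5.55 and 18.4. Per snoRNA and snRNA read it was 1.018, 0.383 (turned to lower in null) and 1.27. The shares more than 2-fold higher were then 84.7%, 92.9% and 38.1%, and more than 2-fold lower 2.35% and 17.8% on the last 2 scales. For the alternatives of this section, the share over all sequences was not computed. With a minimum of 50 reads there were 1076 members, the ratios were 4.33, 1.60 and 5.40, the 22-nt to 18-nt fold was 3.38, and 80.6% were higher and 8.09% lower. With a minimum of 2 reads there were 15489 members, ratios of 4.43, 1.69 and 5.52, and 51.1% higher and 2.01% lower. Those 2 shares are limited by the count of 3 reads taken for a 0, which sequences of few reads could not exceed by 2-fold. Leaving out members within 1 substitution of a transcript gave ratios of 5.13, 1.77 and 5.68, a 22-nt to 18-nt fold of 3.20, and 87.4% higher and 3.41% lower. The TTCNA share in f/f and null was 22.4% and 68.6% at 50 reads, 22.4% and 57.4% at 2 reads, and 35.9% and 70.2% without those members. The base 19 share was 9.65% and 10.9% at 50 reads, 12.2% and 13.8% at 2 reads, and 8.77% in f/f without those members. Chosen after seeing the data, leaving out near copies of abundant members gave 1407 members, 71.4% higher, 13.2% lower and a 22-nt to 18-nt fold of 3.19. Also chosen then, keeping only members of tRNA classes gave a ratio of 4.76, TTCNA shares of 50.03% and 83.3%, and base 19 shares of 6.16% and 10.6%. Families entered the largest of these classes by a read with the T-loop bases, A at base 19 among them. The TTCNA and base 19 shares in these classes were thus partly set by that choice. The cause of these shifts was not tested. The order of the 22-nt and 18-nt ratios and the higher 22-nt to 18-nt fold in null held under each alternative that was run for them. The higher TTCNA and base 19 shares in null, over all member lengths together, held under the alternatives of this section. In the nuclear tRNA classes alone the TTCNA share was lower in null, at 89.6% against 92.7% in f/f. In 30-nt members of all classes the base 19 share was lower in null, at 5.95% against 10.9%.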
